A study of Mus musculus with 8 samples.

Results

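Transcripts of natural killer (NK) cell and cytotoxic T cell genes were followed in whole blood of mice kept in normobaric hypoxia. There the oxygen content of the air is lowered at normal pressure. The set comprised 10 probe sets chosen by their identifiers out of 45037 tested: those of Gzma, Gzmb, Prf1, Ccl5, Klrd1, Klrk1, Klrg1, Il2rb, Eomes and Tbx21, named by the Affymetrix annotation of this mouse array. The choice used no measured value of a probe set, but it was made with earlier results of these data known. Each probe set is a group of short probes that together give 1 intensity for its transcript on an array.

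The control group consisted of 4 mouse blood samples from animals at room condition. The hypoxia group consisted of 4 samples from animals in a sealed chamber, where oxygen was lowered over 14 days, from 21% at the start to 8% at the end, before blood was taken at 15 days. No genetic change, strain, age or sex is given in the sources used here for either group. Blood came from the vena cava in both groups. RNA came from 100 µl of blood per control sample and 500 µl per hypoxia sample, so that an effect of blood volume and one of hypoxia cannot be told apart in any value below. The same holds for an effect of housing in the chamber, although the sample titles call the controls chamber controls. No day of blood draw was recorded for the controls. The labels number the samples without saying that each is a separate animal, and p-values therefore measure only the spread between these samples, which may be technical.

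NK cells and cytotoxic T cells kill infected or altered cells by releasing granules. Perforin opens a passage across the membrane of the target, and granzymes, proteases stored in the same granules, enter and trigger cell death. Killing is controlled in part by activating and inhibitory receptors on the cell surface, some of them of the C-type lectin family. Interleukin-15, which signals through the receptor chain encoded by Il2rb, keeps these cells alive, and the T-box transcription factors T-bet (Tbx21) and Eomesodermin (Eomes) direct their maturation. In blood they are a minority of the leukocytes. Which blood cells the measured transcripts came from was not tested.

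RefSeq promoter windows were found for 6 of the 10 genes, namely Gzma, Gzmb, Prf1, Klrk1, Eomes and Tbx21, each reaching from 250 bases before to 50 bases after the start of the gene. Those of the 3 granule genes are shown because these genes act in the same granule while their probe sets differed in level and spread. They are Gzma at chr13:113100932-113101231 (minus strand), Gzmb at chr14:56262285-56262584 (minus strand) and Prf1 at chr10:61297586-61297885 (plus strand), all in build GRCm38.p6. Capitals mark the letters TGTGGT or their reverse complement ACCACA, a form of the motif bound by RUNX proteins.
Gzma: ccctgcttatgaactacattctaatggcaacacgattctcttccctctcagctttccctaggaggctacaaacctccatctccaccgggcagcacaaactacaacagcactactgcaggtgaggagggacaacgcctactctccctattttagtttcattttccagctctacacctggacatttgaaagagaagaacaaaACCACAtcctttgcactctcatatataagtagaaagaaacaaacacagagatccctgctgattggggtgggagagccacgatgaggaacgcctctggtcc
Gzmb: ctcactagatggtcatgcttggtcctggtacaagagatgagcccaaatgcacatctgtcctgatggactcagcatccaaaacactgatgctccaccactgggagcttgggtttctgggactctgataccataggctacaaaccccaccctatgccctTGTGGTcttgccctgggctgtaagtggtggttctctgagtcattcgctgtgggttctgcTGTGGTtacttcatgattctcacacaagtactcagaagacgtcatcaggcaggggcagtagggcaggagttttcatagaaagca
Prf1: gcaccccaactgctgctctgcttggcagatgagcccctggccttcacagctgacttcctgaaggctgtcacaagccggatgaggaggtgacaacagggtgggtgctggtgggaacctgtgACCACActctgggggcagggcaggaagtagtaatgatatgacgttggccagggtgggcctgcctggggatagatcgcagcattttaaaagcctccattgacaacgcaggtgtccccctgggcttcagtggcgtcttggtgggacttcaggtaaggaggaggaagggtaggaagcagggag

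These RUNX letters stood once in the window of Gzma, at 2 places in that of Gzmb, and once each in those of Prf1 and Klrk1, which makes 4 of 6 windows, against 16.8% of all 32851 promoter windows of that length. A match is a description of the letters and not of a bound site. On both strands 5 further motifs were searched, and the choice of which to mark was made after all had been counted. The T-box letters GGTGTGA were in 0 of 6 windows (3.98% of all windows), and the shorter GTGTGA, which is part of them, was in that of Gzmb (14.5% of all). The STAT letters TTCNNNGAA were in that of Gzmb (8.30% of all), the ETS letters GGAAGT in those of Prf1 and Tbx21 (23.8% of all), and TATAAA in 0 of 6 (13.6% of all).

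Of the 10 probe sets, those of Gzma and Ccl5 fell in hypoxic blood and none rose. This count of 2 became 0 in 7 of the 8 fits that left out 1 array (1 without hypoxia 2), 0 when arrays were centred on Actb and 4 when they were centred on the hybridization controls. Gzma, a granule protease that cleaves after basic residues, fell 4.82-fold. Ccl5, a chemokine that NK and memory T cells store and release and that attracts other leukocytes, fell 2.80-fold. The other 8 did not pass the test, and at an unadjusted limma p under 0.05 the count was 4 lower and 0 higher. Of all 45037 probe sets, 5244 were lower and 6273 higher at that unadjusted p. Of the means, 9 of 10 were lower in hypoxia, with Eomes as the exception. A call was a Benjamini-Hochberg adjusted p under 0.05 from a limma fit over all probe sets. By that rule 2.60% of all probe sets were called lower and 3.65% higher, and 44.3% of all had a lower mean in hypoxia. The median log2 difference, hypoxia minus control, was -1.04 over the 10 probe sets and 0.19 over all probe sets. Values are relative to the other RNA on an array, since all arrays were scaled to the same trimmed mean. In whole blood, fewer cells of a type, less RNA per cell and more RNA from other cells cannot be told apart.

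The arrays of the whole series differed in ways that touch these values. All were scaled to the same trimmed mean, and the median intensity was 163 to 202 on control arrays and 230 to 245 on hypoxia arrays. The hybridization controls, foreign RNA added at the hybridization step and not to the blood RNA, were 0.94 log2 units brighter on hypoxia arrays. Their part in the results was not tested, and 4 other scalings of the arrays are given beside the results. Median log2 differences also varied with brightness and were 0.79 among the dimmest 10% of probe sets and -0.17 among the brightest 10%. Levels of other blood cell types were not analysed here, because the tables used name no further probe set.

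**Figure D1:**
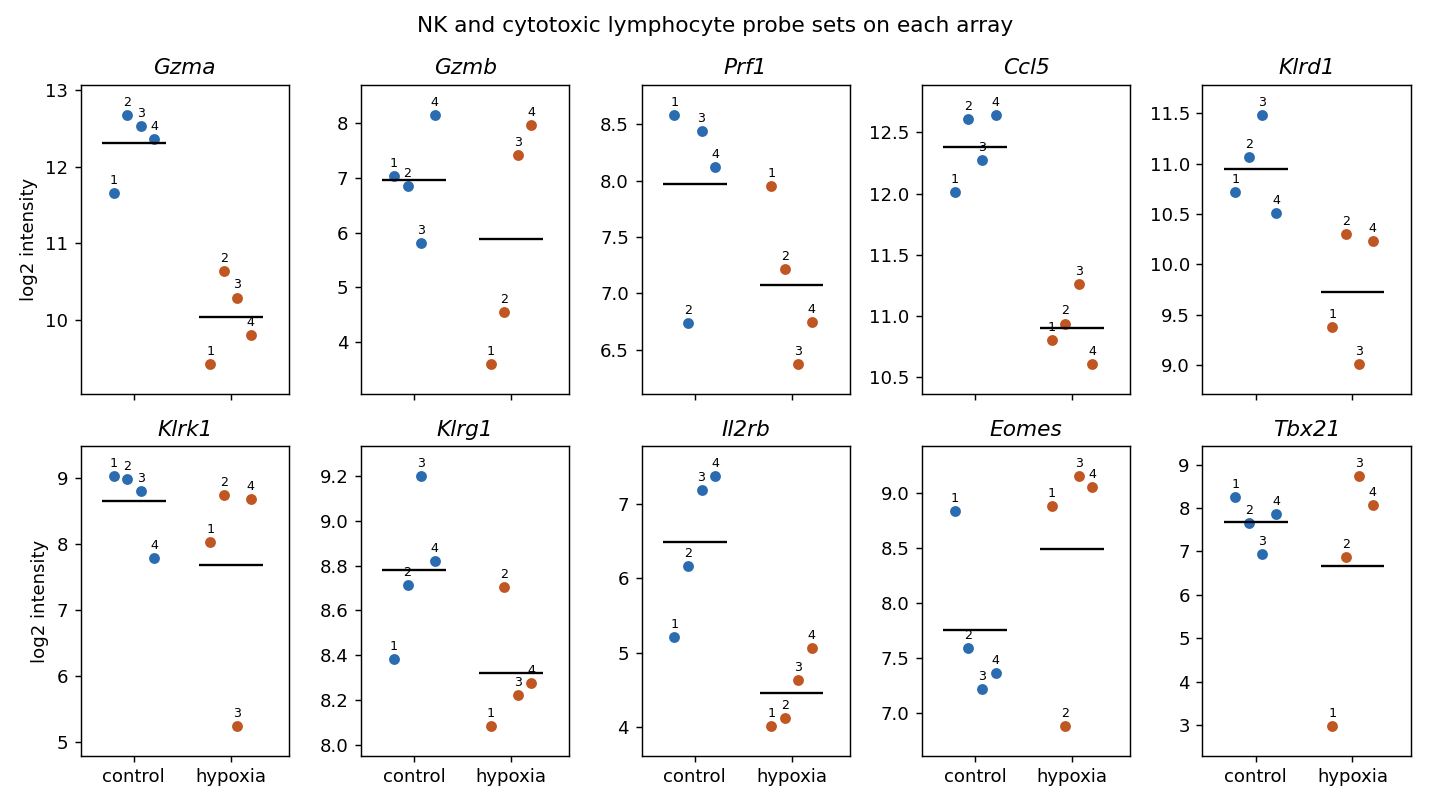
Log2 intensity (vertical axis, its range set for each gene) of the 10 probe sets on the 4 control and 4 hypoxia arrays. Points are arrays, numbered as in the labels, and lines are group means. Control and hypoxia points are fully apart for Gzma, Ccl5, Klrd1 and Il2rb and overlap for the other 6.

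Of the 3 granule genes, Gzma passed the test and Gzmb and Prf1 did not, with overlapping intervals, and the difference between them was not tested. Gzma (1417898_a_at) had intensities of 3229, 6552, 5918 and 5284 on the control arrays and of 685, 1597, 1254 and 892 on the hypoxia arrays, in the order of replicates 1 to 4. Every hypoxia array lay below every control array, with hypoxia 2 the highest of its group and control 1 the lowest of the controls. On the log2 scale control arrays averaged 12.31 ± 0.45 and hypoxia arrays 10.04 ± 0.54 (SD, n = 4 each). The difference of -2.27 (SE 0.43, 95% interval -3.25 to -1.29) had an adjusted p of 0.0258 by limma. It kept its direction in all 19 alternative fits, between -3.21 and -2.06, and passed the threshold in 10 of them, with adjusted p from 7.99e-06 to 0.125. With 1 array left out it passed only without hypoxia 2, and the adjusted p was 0.0280 to 0.0808 over the 8 such fits.

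Gzmb (1419060_at), a granule protease that cleaves after aspartate and activates caspases, had intensities of 131, 115, 56.0 and 285 in control and of 12.1, 23.6, 172 and 249.8 in hypoxia. Hypoxia 1 and 2 lay below all control arrays, whereas hypoxia 3 and 4 lay inside the control range. The log2 difference was -1.07 (SE 1.03, 95% interval -3.43 to 1.29, adjusted p = 0.557 by limma), so that both a large fall and a rise of over 2-fold remain within the interval. Without hypoxia 1 it was -0.31, and without hypoxia 4 it was -1.77.

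Prf1 (1451862_a_at), which encodes perforin, had intensities of 383, 107, 348 and 279 in control and of 247, 149, 82.9 and 108 in hypoxia. Control 2 fell among the hypoxia arrays and the other 3 controls lay above all of them. The log2 difference was -0.90 (SE 0.55, 95% interval -2.16 to 0.37, adjusted p = 0.348 by limma), and without control 2 it was -1.31.

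Ccl5 (1418126_at) had intensities of 4130.2, 6261, 4950.3 and 6401 in control and of 1784, 1964, 2452 and 1559.5 in hypoxia. The groups were fully apart, with little spread in either. On the log2 scale control arrays averaged 12.39 ± 0.30 and hypoxia arrays 10.90 ± 0.27 (SD, n = 4 each), a difference of -1.48 (SE 0.36, 95% interval -2.30 to -0.67) with an adjusted p of 0.0478 by limma, close to the threshold. In all 19 alternative fits the difference was negative, between -2.42 and -1.39. It passed in 9 of them, with adjusted p from 0.000198 to 0.150, and in none of the 8 fits that left out 1 array (adjusted p 0.0698 to 0.126).

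Among the C-type lectin receptors, Klrd1 (1460245_at) encodes CD94, the chain that pairs with NKG2 proteins to recognise a nonclassical MHC molecule. Its intensities were 1688, 2143, 2862 and 1457 in control and 665, 1259, 515 and 1203 in hypoxia. All hypoxia arrays lay below all control arrays, with hypoxia 2 and 4 close to control 4. The log2 difference was -1.22 (SE 0.45, 95% interval -2.24 to -0.19), and its adjusted p of 0.137 by limma missed the threshold. In 5 of 19 alternative fits it passed, among them the one with a trended and robust prior (adjusted p = 0.0147) and the one without dim probe sets (adjusted p = 0.0436), and over all 19 the adjusted p ran from 0.0147 to 0.267. Without hypoxia 3 the difference was -0.98.

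Klrk1 (1450495_a_at) encodes NKG2D, an activating receptor for stress-induced ligands, and is the gene next to Klrd1 in the RefSeq annotation of chromosome 6. Its intensities were 521, 508, 446 and 221 in control and 261, 429, 38.1 and 411 in hypoxia. Hypoxia 3 stood far below every other array, and the other 3 hypoxia arrays lay inside the control range. The log2 difference of -0.97 (SE 0.80, 95% interval -2.80 to 0.85, adjusted p = 0.486 by limma) rested on that array, since without hypoxia 3 it was -0.17.

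Klrg1 (1420788_at), an inhibitory receptor for cadherins that marks mature NK and effector T cells, had intensities of 334, 419, 587 and 452 in control and of 271, 417, 298 and 309.6 in hypoxia. Hypoxia 2 lay inside the control range and the other 3 below it. This was the smallest difference of the 10 in size, at -0.46 on the log2 scale (SE 0.36, 95% interval -1.28 to 0.37, adjusted p = 0.468 by limma), with SDs of 0.34 in control and 0.27 in hypoxia (n = 4 each).

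Il2rb (1417546_at), the shared beta chain of the interleukin-2 and interleukin-15 receptors, had intensities of 36.9, 71.4, 146 and 165 in control and of 16.2, 17.4, 24.9 and 33.4 in hypoxia. The groups did not overlap, but control 1 lay just above hypoxia 4. The log2 difference of -2.02 (SE 0.56, 95% interval -3.31 to -0.73) missed the threshold with an adjusted p of 0.0682 by limma. It passed in 2 of 17 alternative fits, those centred on the array median (adjusted p = 0.0462) and on the hybridization controls (adjusted p = 0.0146), and over all 17 the adjusted p ran from 0.0146 to 0.229. The values were dim, between the 8.03 and 17.1 percentile of their arrays in hypoxia, and adding 100 to every intensity before log2 shrank the difference to -0.69. The size of this difference is therefore uncertain, and the table gives no detection call.

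Both T-box factors varied widely between arrays. Eomes (1426001_at) had intensities of 455, 192, 148 and 164 in control and of 471, 118, 568 and 532 in hypoxia. Hypoxia 1, 3 and 4 lay above all controls, and hypoxia 2 lay below all controls. The log2 difference was 0.74 (SE 0.63, 95% interval -0.70 to 2.19, adjusted p = 0.502 by limma), and without hypoxia 2 it was 1.28. Centred on the hybridization controls it was -0.19, so that its direction depended on the scaling.

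Tbx21 (1449361_at) had intensities of 305, 201, 122 and 231 in control and of 7.90, 118, 424 and 269.9 in hypoxia. Hypoxia arrays lay on both sides of the controls, with hypoxia 3 above all of them, hypoxia 4 among them and hypoxia 1 far below every other array. The log2 difference was -1.01 (SE 1.15, 95% interval -3.63 to 1.62, adjusted p = 0.627 by limma), and without hypoxia 1 it was 0.22. For both transcription factors the intervals thus cover changes of more than 2-fold in size in at least 1 direction, and no difference was detectable with 4 arrays per group.

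**Figure D2:**
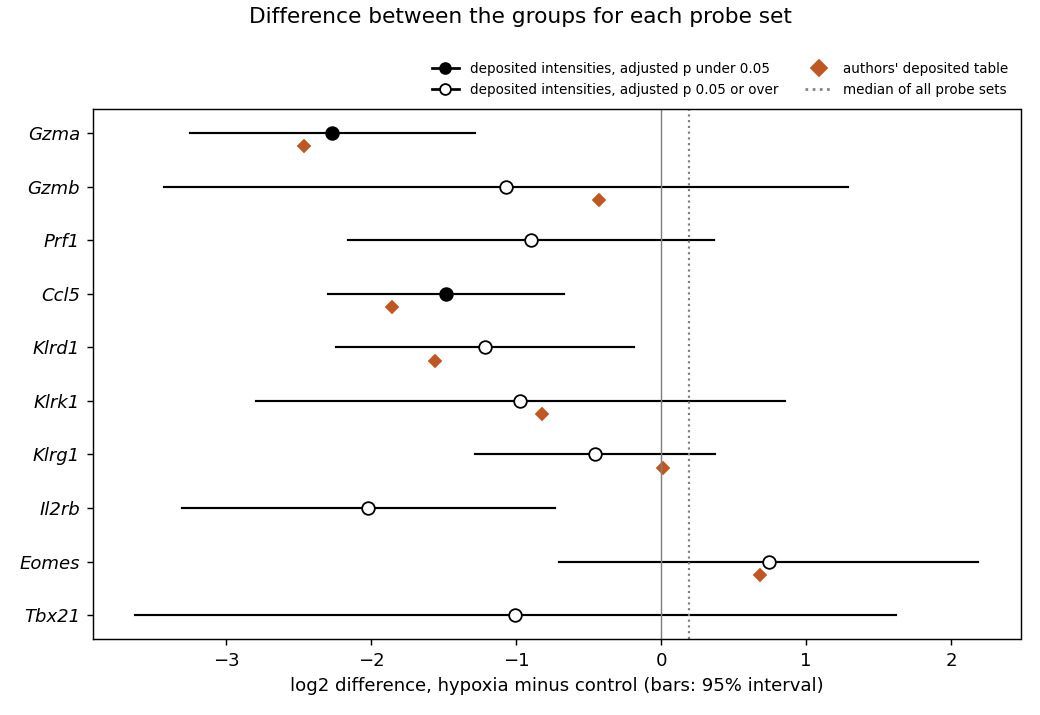
Log2 difference, hypoxia minus control (horizontal axis), of each probe set, with circles for the fit to the deposited intensities, bars for its 95% interval and diamonds for the 7 probe sets of the authors' deposited table. Filled circles mark Gzma (-2.27) and Ccl5 (-1.48), which passed the threshold, and the dotted line is the median of all probe sets at 0.19.

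In 4 of the 10 probe sets, Gzma, Ccl5, Klrd1 and Il2rb, all hypoxia values lay below all control values, against 10.5% of all probe sets lower and 10.5% higher in this way. For each of these 4 the two-sided exact permutation test over arrays gave p = 0.0286, the smallest that 4 against 4 arrays allow. Adjusted over all probe sets that p becomes 0.136, so the exact test can call none. Other scalings gave other counts and backgrounds. Centring on the array median left the same 4 apart, where 14.8% of all probe sets were lower in this way. Quantile normalization and centring on Actb, which encodes a cytoskeletal actin, each left 3 apart, without Klrd1, with backgrounds of 10.9% and 8.63%. Centring on the hybridization controls left 5 apart, Klrg1 in addition, with a background of 22.7%.

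Lower calls made up a larger share of bright probe sets than of all probe sets. Gzma, Ccl5 and Klrd1 were the 3 members in the brightest 10% of probe sets, and there 11.7% of probe sets were called lower and 35.4% had all hypoxia values below all control values. The other 7 were dimmer, at percentiles of 15.5 to 72.3 by mean level. Control SDs were 0.30 to 0.45 log2 units for the 3 bright members. For the other 7 they were 0.34 to 1.00, and hypoxia SDs reached 2.57 for Tbx21 and 2.14 for Gzmb. The SE of the difference was 0.36 to 0.45 for the bright members and 0.36 to 1.15 for the others.

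**Figure D3:**
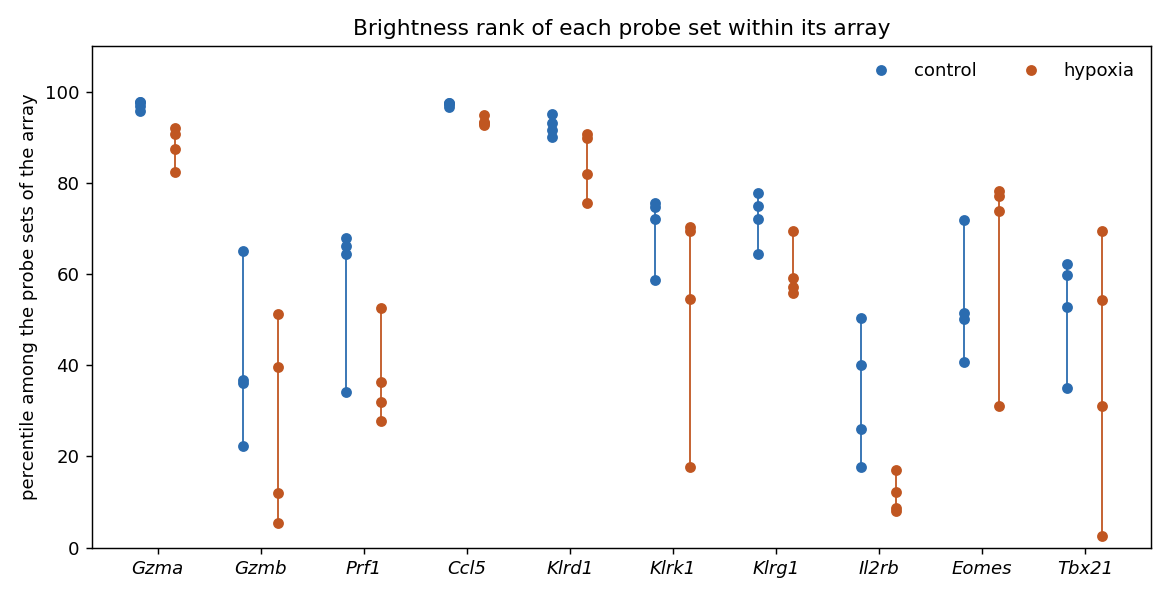
Percentile of each probe set among the 45037 probe sets of the same array (vertical axis), with a point per array and a line over the range of each group. Gzma lay at 95.7 to 97.7 in control and 82.4 to 91.9 in hypoxia, Ccl5 at 96.7 to 97.6 and 92.7 to 94.8, while Tbx21 and Klrk1 spread widely in hypoxia.

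The rank of a probe set within its own array needs no scaling between arrays. Gzma ranked at the 95.7 to 97.7 percentile in control and at the 82.4 to 91.9 percentile in hypoxia, and Ccl5 at 96.7 to 97.6 and at 92.7 to 94.8. Both were lower in rank on every hypoxia array than on any control array. So was Il2rb, at 17.6 to 50.3 in control and 8.03 to 17.1 in hypoxia. The share of all probe sets that were apart by rank was not counted. Klrd1 ranked at 90.04 to 94.97 in control and at 75.5 to 90.6 in hypoxia, where hypoxia 4 stood above control 4. Prf1 had a median rank of 65.3 in control and 34.2 in hypoxia, with overlapping groups. Eomes had median ranks of 50.9 and 75.5, also with overlap.

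Ratios of members on the same array set their changes side by side. The change of a mean log2 ratio follows from the log2 differences given above and is not separate evidence. The log2 ratio of Gzma to Ccl5 was -0.36, 0.07, 0.26 and -0.28 on the control arrays and -1.38, -0.30, -0.97 and -0.81 on the hypoxia arrays. Hypoxia 2 lay just inside the control range and the other 3 below it. The mean ratio went from -0.08 ± 0.29 (SD, n = 4) to -0.86 ± 0.45 (SD, n = 4). For Gzma to Klrd1 the mean went from 1.36 ± 0.44 (SD, n = 4) to 0.31 ± 0.72 (SD, n = 4), with hypoxia 3, at 1.28, inside the control range. For Ccl5 to Klrd1 it was 1.44 ± 0.56 and 1.17 ± 0.85 (SD, n = 4 each), a change smaller than either spread. No test was made of these ratios, which were chosen because the 3 members are the bright ones.

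**Figure D4:**
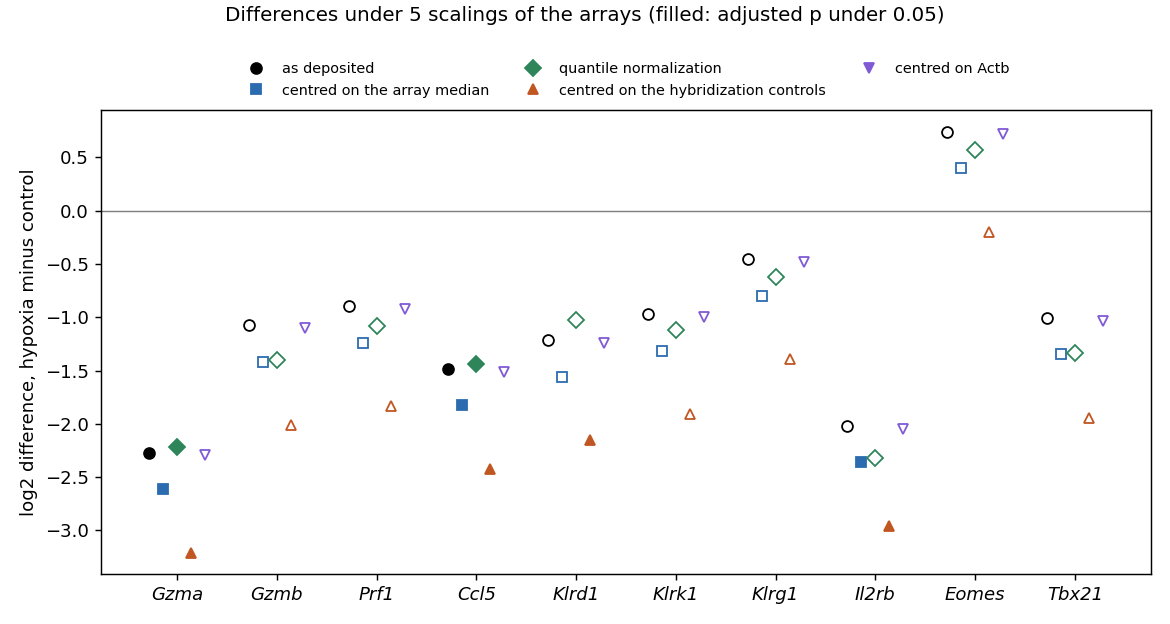
Log2 difference, hypoxia minus control (vertical axis), of the 10 probe sets under 5 scalings of the arrays, with filled symbols for an adjusted p under 0.05. Gzma and Ccl5 are filled under 4 of 5 scalings, and Eomes is the only member whose sign turned, at -0.19 when arrays were centred on the hybridization controls.

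Scaling changed which members passed. Centring on the array median called Gzma, Ccl5 and Il2rb lower (5.40% of all probe sets were), and quantile normalization called Gzma and Ccl5 (2.35% of all). Centring on the hybridization controls called Gzma, Ccl5, Klrd1 and Il2rb (13.6% of all). Centring on Actb called none, with adjusted p = 0.0510 for Gzma and 0.0818 for Ccl5 by limma (0.906% of all were called lower). Under each of the 5 scalings at least 9 of the 10 members had a lower mean in hypoxia. All 10 did when arrays were centred on the hybridization controls, where the median of all probe sets was itself -0.74. The share of all probe sets with a lower mean was 44.3% as deposited and was not counted under the other scalings. The median over the 10 was between -1.98 and -1.04, against medians of all probe sets between -0.74 and 0.19.

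The authors' deposited table compared the same arrays by SAM, significance analysis of microarrays, on values other than the deposited intensities, and it listed 7 of the 10 probe sets. Prf1, Il2rb and Tbx21 were not among them. In the authors' deposited table Gzma had a log2 difference of -2.47 and Ccl5 one of -1.86, both with a q-value of 0%. Klrd1 was at -1.56 with a q-value of 0% and Klrk1 at -0.82 with a q-value of 0.210% in the authors' deposited table. These 4 of 7 were lower at a q-value under 5%, against 41.1% of all 19916 probe sets listed. Gzmb stood at -0.43 with a q-value of 9.20% in the authors' deposited table, Klrg1 at 0.02 with 23.7% and Eomes at 0.68 with 5.24%. The order of Gzma, Ccl5 and Klrd1 by size was the same in both sources, and Klrg1 was the 1 listed member whose sign differed between them.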

How the data were processed

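Whole-blood RNA of 8 samples was copied with an oligo(dT) primer, labelled with biotin and hybridised to 1-colour arrays, per the labels' protocols. The deposited table holds 1 linear intensity per probe set and array. GCRMA, RMA and Partek are listed in the submitters' processing notes, with no role for any of them, and how the values were made is not stated. Per the file headers, the authors' SAM table gives a score, a fold ratio, a difference that is on the log2 scale and a q-value in percent.

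Log2 was taken of each intensity after a floor of 1, which touched 14 values. Without the array's 64 control probe sets, 45037 entered 1 limma fit (version 3.58.1, R 4.3.3) with a constant prior and no covariate, and p-values were adjusted over all of them. The 10 members and all lists were chosen with earlier results of these data known, and all 10 members are reported. The fit was tested on simulated data, with changes only in the brighter probe sets and no shift between arrays. That test does not cover the dim members or the differences between these arrays. Planned lists of other NK genes and blood cell markers, and ratios to T cell genes and Ptprc, were not analysed here, because only the 10 members could be named. Alternatives were 4 scalings, 2 offsets, a filter on dim probe sets, another prior, array weights, a replicate block, each array left out and, added after seeing the data, a fit to the authors' probe sets alone. The number of arrays limits the precision.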

Additional observations from a re-analysis of the deposited data

Results flagged for a closer look

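The log2 intensity of Eomes on hypoxia 2 was 6.88, far from the 8.88 to 9.15 of the other 3 hypoxia arrays. Among 26 groups of 4 arrays examined this was the 1 group with such a distant array, and about 1.3 would be found by chance with Dixon's test at its 95% level.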

How the results depend on the processing

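The median log2 difference of the members was negative under every alternative run. From -1.04 as reported it went to -1.38 when centred on the array median, -1.98 when centred on the hybridization controls and -0.58 with an offset of 100, and ran from -1.38 to -0.95 with 1 array left out. The fit without dim probe sets lacked Gzmb, Il2rb and Tbx21, and the fit to the authors' probe sets lacked Prf1, Il2rb and Tbx21. Medians and counts of members in these fits cover only the members left. The number of members called lower, 2 as reported, became 4 when centred on the hybridization controls, 0 when centred on Actb and 0 with the replicate block, and was 0 to 1 with 1 array left out, while 0 were called higher in each of these fits. At an unadjusted limma p under 0.05, 4 members were lower when centred on Actb and 3 with the block, and 0 were higher. Of all 45037 probe sets, 4742 were lower and 5583 higher at that unadjusted p when centred on Actb, and 4397 were lower and 5951 higher with the block. The counts of adjusted calls over all probe sets, 1643 higher and 1173 lower as reported, were less stable. Lower calls became 2433 when centred on the array median and 1908 with an offset of 16. The higher and lower calls were 593 and 6129 when centred on the hybridization controls, 1074 and 408 when centred on Actb, 3476 and 3639 with an offset of 100, 3006 and 3382 without dim probe sets, 3123 and 3713 with a trended and robust prior, and 0 and 0 with the replicate block (5951 and 4397 at an unadjusted limma p under 0.05). With 1 array left out they were 384 to 1367 and 76 to 1250. The labels give replicate numbers only as names of the samples and state no pairing. The deviations of same-numbered control and hypoxia arrays from their group means correlated at -0.02 to 0.01 across probe sets. No control array correlated best with the hypoxia array of its own number. These correlations cannot show that no pairing exists, since each rests on 1 array per group and on all probe sets, dim ones included. Signs turned for Eomes when centred on the hybridization controls (-0.19), for Tbx21 without hypoxia 1 (0.22, against -1.69 without hypoxia 3) and for Klrg1 in the authors' deposited table (0.0156), none of them past the threshold on either side. The cause was not tested. Dim members limit what 4 arrays per group can show.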
